A study of Chlorocebus sabaeus with 32 samples.

Results

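The cadherins and the non-clustered protocadherins form 33 rows of the hippocampal gene count table of young vervet monkeys (Chlorocebus sabaeus), out of 33994 gene rows. They were chosen by symbol alone, as CDH or PCDH followed by a number, and CDH5, the endothelial cadherin, was left out. Of the 33 members, 22 are cadherins and 11 are protocadherins. The cadherins comprise 5 type I classical, 12 type II classical and 5 other cadherins, and the protocadherins comprise 3 of the delta-1 group, 5 of the delta-2 group and 3 others.

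The study examined how hippocampal gene expression changes during development in 32 libraries of ribosome-depleted, strand-preserving RNA sequencing, each taken as 1 animal. Every animal is given as under 1 year of age, and the labels state no treatment, genotype, sex or exact age. Titles open with a 4-digit prefix that sets apart 16 libraries (prefix-2010), 14 libraries (prefix-2009) and 2 libraries (prefix-2011), and what it marks is not explained. The title number, which follows the letters VMT, is below 20000 in 7 of the libraries of prefix-2010 and in all 14 of prefix-2009. It is above 20000 in the other libraries, so that prefix and number set are partly tied.

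Cadherins are calcium-dependent adhesion proteins of the cell surface. Classical cadherins bind mostly to their own kind on the neighbouring cell and couple to actin through beta- and alpha-catenins. The type II members are expressed in region-specific combinations in the brain. Delta protocadherins adhere more weakly, and several of the delta-2 group recruit the WAVE actin-regulating complex. In the rodent hippocampus, members of both families take part in forming and adjusting the synapses between dentate granule cells and CA pyramidal neurons.

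Each library held between 9347635 and 19673621 gene counts, and 3 counts, the upper limit that a count of 0 allows, equalled 0.153 to 0.321 counts per 1000000 gene counts (CPM). Reads in no annotated feature took 51.3% to 67.1% of all reads counted. The CPM levels below also carry a scaling factor per library (TMM), which the limit of 3 counts does not. CPM is not corrected for gene length, so levels are compared between animals and not between genes. A set of 3 libraries stood apart on markers. Library prefix-2010 replicate 2 had 453.5 CPM of PENK and 114.5 CPM of DRD1, genes of striatal neurons, against medians of 16.9 and 18.2 CPM over all libraries, and only 20.1 CPM of PROX1, a dentate granule cell factor, against a median of 115.5 CPM. Library prefix-2010 replicate 8 had 385.6 CPM of TTR, a choroid plexus gene, against a median of 1.84 CPM, and 160.8 CPM of PENK. Library prefix-2009 replicate 1 had the fewest gene counts and the largest share of reads in no feature, with 4.26 CPM of C1QL2, a granule cell gene, against a median of 47.7 CPM. These 3 libraries also held the lowest or highest values of many members, and values without them are given beside the results they touch most.

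All 5 type I cadherins were detected. CDH2, the N-cadherin of neural tissue and synapses, ran from 112 CPM in prefix-2009 replicate 1 to 187 CPM in prefix-2010 replicate 2, with a median of 153 CPM. CDH4, or R-cadherin, ran from 9.27 to 24.7 CPM around a median of 17.1 CPM. CDH1, CDH3 and CDH15, known mainly from other tissues, had few counts. CDH1, the E-cadherin of epithelia, had a median of 0.378 CPM and at most 21 counts in a library. CDH3, the P-cadherin, had a median of 1.76 CPM and at most 40 counts, and CDH15, the M-cadherin of muscle, a median of 1.07 CPM and at most 31 counts.

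All 12 type II cadherins were detected in every library. CDH8 ran from 107 to 232 CPM with a median of 164 CPM, and CDH11, also named OB-cadherin after osteoblasts, from 95.5 to 166 CPM with a median of 130 CPM. CDH9, which in mice serves the mossy fibre synapse onto CA3 neurons, ran from 36.7 to 87.4 CPM with a median of 66.0 CPM. CDH10 ran from 62.4 to 93.8 CPM with a median of 79.0 CPM.  CDH12 had a median of 54.4 CPM, CDH20 of 45.4 CPM, CDH18 of 28.3 CPM, CDH7 of 24.7 CPM and CDH6 of 18.6 CPM. CDH22, CDH24 and CDH19, the last a cadherin of glial cells, had medians of 18.1, 11.8 and 10.8 CPM.

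Of the other cadherins, CDH13, or T-cadherin, which is held to the membrane by a lipid anchor and lacks the catenin-binding tail, had a median of 61.3 CPM with a range of 40.7 to 97.0 CPM. CDH23, a tip-link protein of inner ear hair cells, had a median of 11.2 CPM, CDH26 of 8.95 CPM and CDH17, the liver-intestine cadherin, of 1.67 CPM. CDH16, the kidney cadherin, had 0 counts in 20 libraries and at most 2 counts in any other, which is below the limit of 3 counts everywhere, and it was not tested.

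Among the delta-1 protocadherins, PCDH9 had a median of 548 CPM, PCDH1 of 220 CPM and PCDH7 of 172 CPM. Among the delta-2 group, PCDH17 had a median of 241 CPM, PCDH8 of 121 CPM, PCDH10 of 97.9 CPM, PCDH19, mutated in an inherited epilepsy, of 79.2 CPM and PCDH18 of 24.6 CPM. The remaining 3 were PCDH20 with a median of 181 CPM, PCDH15, the partner of CDH23 in the tip link and a gene of oligodendrocyte precursors in brain, with 77.8 CPM, and PCDH12, a protocadherin of endothelial cells, with 10.8 CPM. PCDH9 reached 1074 CPM and PCDH8 was at 22.2 CPM in the same library, prefix-2009 replicate 1. The nearest other libraries were at 650 CPM for PCDH9 and 79.1 CPM for PCDH8.

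**Figure D1:**
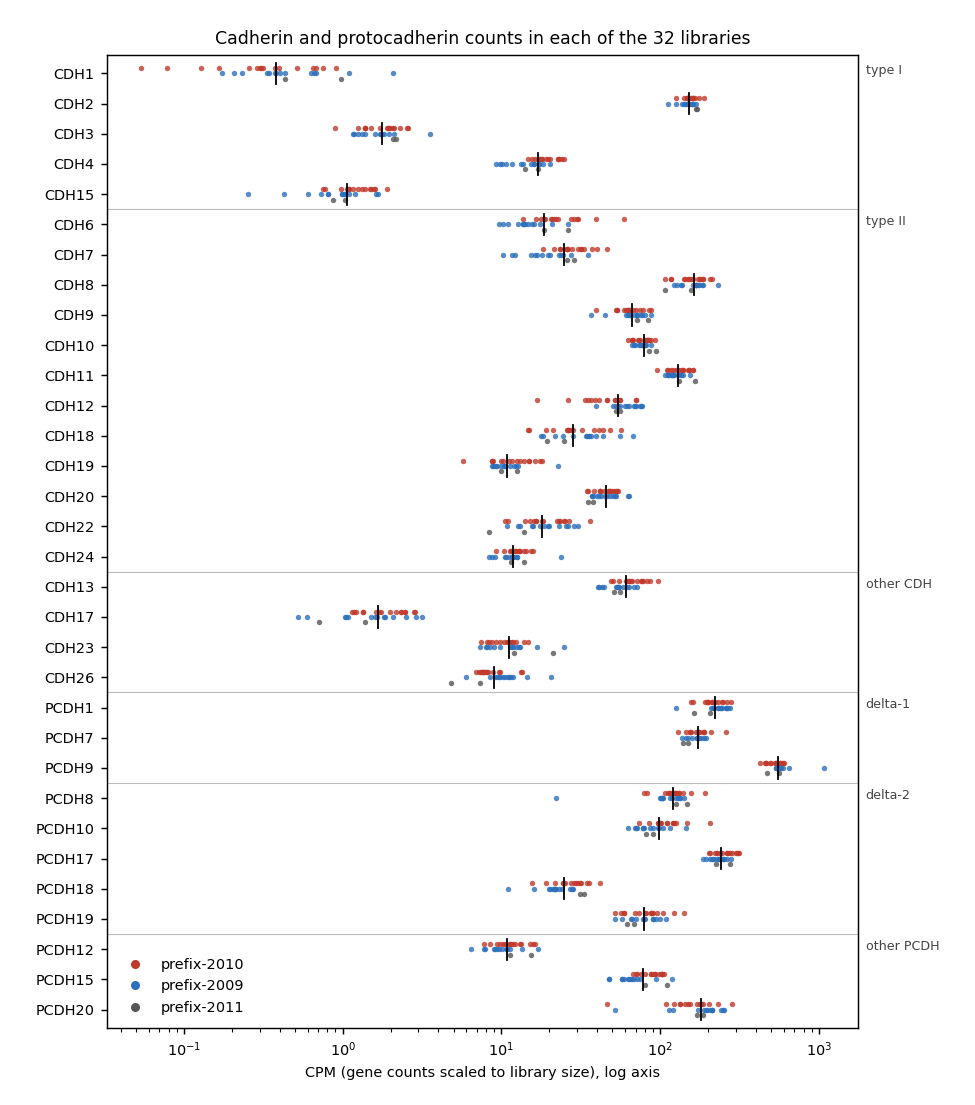
CPM of each member (log axis) in each library, coloured by title prefix, with the median of all 32 libraries as a black bar and CDH16 left out because it is at 0 in 20 libraries. The isolated points of PCDH8 at 22.2 CPM and PCDH9 at 1074 CPM belong to prefix-2009 replicate 1.

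The spread between animals was measured as the biological coefficient of variation, the part of the variation between libraries that exceeds counting noise, around the mean of all 32. The median over the 31 members past the count filter was 0.233, against 0.157 over all genes that passed, and 26 of the 31 lay above the median of all genes. Within prefix-2010 alone 23 of 31 did, with a member median of 0.185 against 0.149. Within prefix-2009 alone 26 of 31 did, with 0.219 against 0.151. These are descriptions, with no test.

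Type II cadherins were found at both ends of the spread, together with members of other groups. Among members with a mean of at least 1 CPM, CDH6 had the largest coefficient, 0.382, higher than that of 95.4% of all genes. Next came CDH17 with 0.365, at only 0.519 to 3.17 CPM, CDH18 with 0.360 and PCDH20 with 0.335. CDH18 ran from 14.6 to 67.1 CPM and PCDH20 from 46.3 to 282 CPM. The lowest values of PCDH20, 46.3 and 52.3 CPM, were those of prefix-2010 replicate 2 and prefix-2009 replicate 1. The highest values of CDH6, 59.0 and 39.4 CPM, were those of prefix-2010 replicates 2 and 8. The coefficients were not computed without the libraries that stood apart, so their part in these spreads was not tested. The smallest coefficients were those of CDH2 with 0.105, CDH10 with 0.106, CDH11 with 0.136 and PCDH7 with 0.138. CDH2 and CDH10 varied less than most genes, since only 17.3% and 17.8% of all genes had a smaller coefficient. The largest value of PCDH7, 261 CPM, was in prefix-2010 replicate 2.

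Animals of prefix-2010 differed from those of prefix-2009 in 8 members. CDH6, CDH7, CDH4, PCDH15, PCDH10, PCDH18 and CDH13 were higher in prefix-2010, by 1.27 to 1.70 times, and CDH12 was lower, at 0.736 times. With edgeR's quasi-likelihood test, adjusted by Benjamini-Hochberg over 23977 genes at a threshold of 0.05, 7 of 32 members tested were higher, where 7.12% of all genes tested were, and 1 was lower, where 5.35% were. When only genes with a mean of at least 1 CPM were tested, 1585 of 19685 were higher and 1334 lower. In the main fit the median log2 difference was 0.09 over members and 0.0053 over all genes. Whether the animals of the prefixes differ in age, sex or handling is not given and was not tested. In bulk tissue like this, fewer cells of a type and less RNA per cell cannot be told apart.

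Of the type I cadherins, CDH4 was past the threshold. It ran from 14.7 to 24.7 CPM with a median of 18.6 CPM in prefix-2010, and from 9.27 to 20.1 CPM with a median of 14.5 CPM in prefix-2009. All 16 animals of prefix-2010 were above the median of prefix-2009 and 6 above its highest value, so the groups overlapped. CDH4 had a log2 difference of 0.45 ± 0.10 (SE; adjusted p = 0.00458).

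Of the 12 type II cadherins, 2 were higher, 1 was lower and 9 did not pass. CDH6 ran from 13.6 to 59.0 CPM with a median of 21.7 CPM in prefix-2010, and from 9.65 to 26.4 CPM with a median of 13.9 CPM in prefix-2009. Of the 16 animals of prefix-2010, 15 were above the median of prefix-2009 and 6 above its highest value. The log2 difference was 0.77 ± 0.17 (SE; adjusted p = 0.00284). The highest 2 values of CDH6, 59.0 and 39.4 CPM, were those of prefix-2010 replicates 2 and 8. Without the 3 libraries that stood apart the difference was 0.64 ± 0.12 (adjusted p = 0.000946).

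CDH7 ran from 18.1 to 46.5 CPM with a median of 27.01 CPM in prefix-2010, and from 10.3 to 35.0 CPM with a median of 18.9 CPM in prefix-2009. Only 3 animals of prefix-2010 exceeded the highest of prefix-2009, while 15 of 16 exceeded its median. Its log2 difference was 0.59 ± 0.14 (SE; adjusted p = 0.00769). The 2 highest values, 46.5 and 40.2 CPM, were those of prefix-2010 replicates 2 and 8, and without the 3 libraries that stood apart the difference was 0.52 ± 0.14 (adjusted p = 0.0117).

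CDH12 went the other way. It ran from 16.7 to 70.5 CPM with a median of 46.1 CPM in prefix-2010, and from 39.2 to 76.5 CPM with a median of 62.9 CPM in prefix-2009. Of the 16 animals of prefix-2010, 14 were below the median of prefix-2009. This gave a log2 difference of -0.44 ± 0.14 (SE; adjusted p = 0.0302). Its 2 lowest values, 16.7 and 26.1 CPM, were again those of prefix-2010 replicates 2 and 8, and without the 3 libraries that stood apart the difference was -0.34 ± 0.11 (adjusted p = 0.0347). The call was lost when prefix-2009 replicate 2, the highest library, was left out (-0.42, adjusted p = 0.0528).

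CDH13 ran from 48.8 to 97.0 CPM with a median of 65.9 CPM in prefix-2010, and from 40.7 to 71.2 CPM with a median of 54.5 CPM in prefix-2009. Of the 16 animals of prefix-2010, 7 were above the highest value of prefix-2009 and 2 below its median. The log2 difference was 0.35 ± 0.09 (SE; adjusted p = 0.0112). The highest value was that of prefix-2010 replicate 2, and without the 3 libraries that stood apart the difference was 0.32 ± 0.09 (adjusted p = 0.0129).

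Of the delta-2 protocadherins, PCDH10 and PCDH18 were past the threshold with the least margin. PCDH10 ran from 73.2 to 207 CPM with a median of 106 CPM in prefix-2010, and from 62.7 to 146 CPM with a median of 82.5 CPM in prefix-2009. Its log2 difference was 0.36 ± 0.12 (SE; adjusted p = 0.0396), and 15 of 16 animals of prefix-2010 were above the median of prefix-2009. The extreme 207 CPM was in prefix-2010 replicate 2, without which the difference was 0.27 (adjusted p = 0.0679). Leaving out any of 14 single libraries ended the call.

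PCDH18 ran from 15.6 to 41.7 CPM with a median of 27.9 CPM in prefix-2010, and from 10.99 to 28.2 CPM with a median of 21.8 CPM in prefix-2009. With 8 animals of prefix-2010 above the highest of prefix-2009, it had the most of the 8 members called, yet 2 were below the median of prefix-2009. The log2 difference was 0.36 ± 0.12 (SE; adjusted p = 0.0372), and leaving out any of 10 single libraries ended the call.

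PCDH15 ran from 67.5 to 105 CPM with a median of 91.0 CPM in prefix-2010, and from 47.6 to 119 CPM with a median of 64.8 CPM in prefix-2009. All 16 animals of prefix-2010 were above the median of prefix-2009, and none was above its highest value, which was that of prefix-2009 replicate 1. The log2 difference was 0.40 ± 0.10 (SE; adjusted p = 0.00848). Of 9 oligodendrocyte precursor markers, 5 were higher in prefix-2010 and none lower, and their summed level ran from 1531 to 2264 CPM in prefix-2010 and from 1149 to 2022 CPM in prefix-2009. Their part in the PCDH15 difference was not tested.

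**Figure D2:**
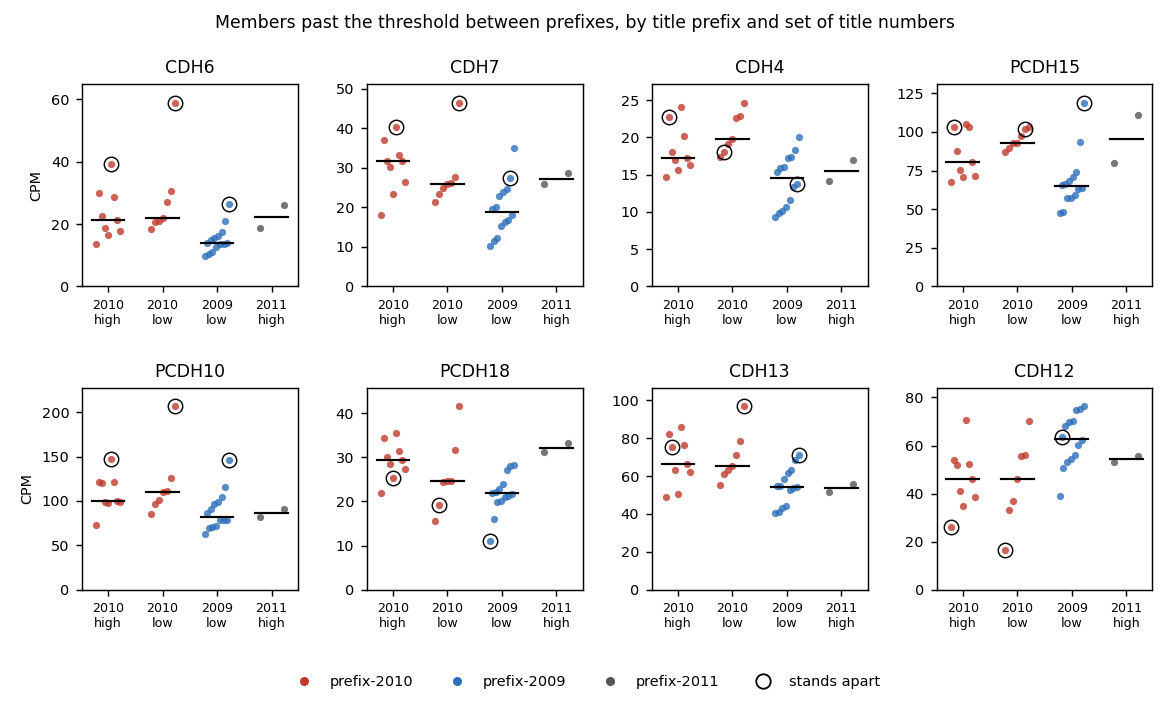
CPM of the 8 members past the threshold, by title prefix and by title numbers above 20000 (high) or below (low), with medians as bars and the 3 libraries that stood apart ringed. For 7 members the medians of both sets of prefix-2010 lie above that of prefix-2009, and for CDH12 both lie below it. The members were called from these same libraries.

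The other 24 members tested did not pass. No delta-1 protocadherin was called. The largest changes that missed were those of CDH1, with a log2 difference of -0.48 and a 95% interval of -1.17 to 0.20, CDH15 with 0.41 (0.04 to 0.77, adjusted p = 0.132 by edgeR) and CDH26 with -0.33 (-0.57 to -0.08, adjusted p = 0.0739 by edgeR). The CDH1 value was -0.24 without prefix-2009 replicate 1, the library of its highest level. The intervals of CDH10, from -0.08 to 0.14, and CDH2, from -0.02 to 0.19, held 0 and were narrow.

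**Figure D3:**
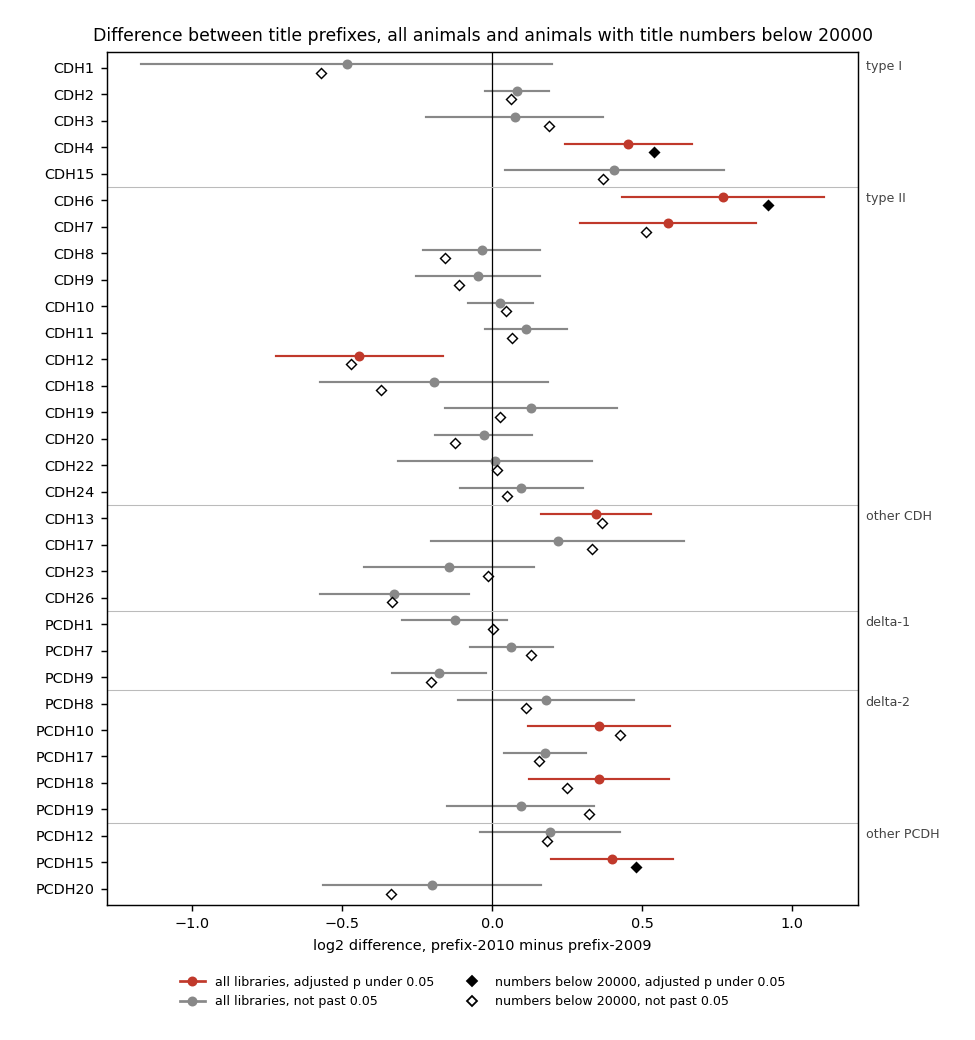
Log2 difference of prefix-2010 minus prefix-2009 per member over all 32 libraries (circles with 95% intervals) and over the 21 libraries with title numbers below 20000 (diamonds, filled where adjusted p is under 0.05). CDH6, CDH4 and PCDH15 are past 0.05 in both.

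The same contrast among the 21 animals with title numbers below 20000, 7 of prefix-2010 and 14 of prefix-2009, kept the direction of all 8. These animals are among those by which the 8 were called, so the kept direction is not independent support. CDH6 differed there by 0.92 (adjusted p = 0.0107), CDH4 by 0.54 (adjusted p = 0.0231) and PCDH15 by 0.48 (adjusted p = 0.0315), by edgeR's quasi-likelihood test. The other 5 did not pass, among them CDH13 with 0.37 (adjusted p = 0.0562) and CDH12 with -0.47 (adjusted p = 0.123). With fewer animals, fewer genes passed as a whole. Of 22203 tested, 687 were higher and 475 lower, against 1707 and 1283 of 23977 over all animals. Within that set PCDH15 ran from 87.0 to 103 CPM in prefix-2010 and from 47.6 to 119 CPM in prefix-2009, so that the groups still overlapped.

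Markers of immature neurons moved with the prefix. Of 12 tested, 10 were higher in prefix-2010 and none lower, and their summed level ran from 1771 to 4411 CPM with a median of 3075 CPM in prefix-2010, and from 1372 to 3108 CPM with a median of 1935 CPM in prefix-2009. Of 7 markers of striatum and thalamus 3 were higher, while their summed medians were close, at 106.6 CPM in prefix-2010 and 102.9 CPM in prefix-2009. The sums ran from 91.9 to 895 CPM in prefix-2010 and from 78.2 to 142 CPM in prefix-2009. The highest sums, 895 and 321 CPM, were those of prefix-2010 replicates 2 and 8, which stood apart. Of 18 mature myelin markers, 3 were lower and none higher past the threshold, though 8 of the 18 had a positive log2 difference. Their summed median was 5845 CPM in prefix-2010 and 5249 CPM in prefix-2009, so the sum was not lower in prefix-2010. Of 6 excitatory neuron markers, 2 were lower and none higher, with summed medians of 3254 CPM in prefix-2010 and 4157 CPM in prefix-2009. Of 5 dentate granule cell markers, 1 was lower, with summed medians of 515.6 CPM in prefix-2010 and 700.9 CPM in prefix-2009, and of 7 inhibitory neuron markers 2 were higher. The part of these cell types in the differences of the members was not tested beyond the fit with the score below. With a score of the immature neuron markers as a covariate, no member passed in either direction, and the log2 difference was 0.78 for CDH6 (adjusted p = 0.370), 0.59 for PCDH10 (adjusted p = 0.359), -0.61 for CDH12 (adjusted p = 0.372) and -0.012 for PCDH18 (adjusted p = 0.986). In that fit only 1 gene of all those tested passed.

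Members were next set against 2 scores, each the mean of standardized log2 CPM over a marker list. The immature neuron score rests on 12 genes that are high in newly formed neurons, such as DCX and SOX11, and the mature myelin score on 18 genes of myelinating oligodendrocytes, such as MBP. The immature neuron score had a median of 0.447 in prefix-2010, of -0.850 in prefix-2009 and of 1.57 in prefix-2011. The groups overlapped, with scores from -0.811 to 1.75 in prefix-2010 and from -1.91 to 0.323 in prefix-2009. Slopes are log2 changes per standard deviation of a score over all 32 animals.

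Along the immature neuron score, 10 of 31 members tested were higher and 4 lower by edgeR's quasi-likelihood test, where 17.1% of the 19947 genes tested were higher and 17.4% lower. The median slope was 0.03 over members and -0.00062 over all genes. The members that were higher with the score were PCDH18, CDH6, CDH7, CDH15, PCDH12, PCDH8, PCDH15, CDH4, CDH11 and CDH10, and those lower were CDH26, CDH18, CDH22 and PCDH9. Along the same score 9 of 18 mature myelin markers, 3 of 6 excitatory neuron markers and 3 of 8 astrocyte markers were lower. None of the markers in these lists was higher. Their part in these slopes was not tested apart from the fit with the myelin score as a covariate. In that fit 9 members were higher and 2 lower, and over all genes 2843 of 19947 were higher and 2994 lower. Among the delta-2 protocadherins 2 of 5 were higher, and among the type II cadherins 4 of 12 were higher and 2 lower.

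PCDH18 had the smallest adjusted p among the members that were higher, with a slope of 0.25 ± 0.05 (SE; adjusted p = 0.000101, edgeR), and its lowest value of 10.99 CPM was in the animal of lowest score, prefix-2009 replicate 1. Both animals of prefix-2011, at 31.2 and 33.3 CPM, were above the median of 24.6 CPM. CDH6 had a slope of 0.25 ± 0.09 (adjusted p = 0.0331), CDH7 of 0.22 ± 0.08 (adjusted p = 0.0250) and CDH15 of 0.22 ± 0.09 (adjusted p = 0.0462). These 3 calls depended on single libraries: the CDH15 call was lost on leaving out any of 21 libraries, that of CDH6 on leaving out any of 8, and that of CDH7 on leaving out prefix-2009 replicate 9 (0.20, adjusted p = 0.0531). Within prefix-2010 alone the CDH7 slope turned to -0.074 (adjusted p = 0.786) and the CDH6 slope was 0.0040 (adjusted p = 0.996), and within prefix-2009 alone they were 0.25 and -0.028.

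PCDH12 had a slope of 0.19 ± 0.05 (adjusted p = 0.00404, edgeR) and ran from 6.43 to 17.1 CPM, with its lowest value again in prefix-2009 replicate 1. Of 6 endothelial markers, 2 were higher along the score and none lower, and of 8 mural and fibroblast markers 6 were higher and 1 lower. Their part in the PCDH12 slope was not tested. PCDH15 had a slope of 0.18, or 0.27 without prefix-2009 replicate 1, the library of its highest level and of the lowest score, and it was 0.18 within prefix-2010 (adjusted p = 0.0879) and -0.105 within prefix-2009 (adjusted p = 0.709). Along the score 7 of 9 oligodendrocyte precursor markers were higher and none lower. PCDH8, known as arcadlin and induced by activity in rat hippocampal neurons, had a slope of 0.18 ± 0.07 (adjusted p = 0.0379) that was 0.10 without prefix-2009 replicate 1 (adjusted p = 0.0637), and leaving out any of 4 single libraries ended the call. CDH4, CDH11 and CDH10 had slopes of 0.17, 0.12 and 0.07.

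CDH26 fell most along the score, with a slope of -0.31 ± 0.05 (SE; adjusted p = 3.65e-06, edgeR). It ran from 4.83 CPM in prefix-2011 replicate 1, the animal of highest score, to 20.5 CPM in prefix-2009 replicate 1, the animal of lowest score, with a median of 8.95 CPM. Without the 3 libraries that stood apart its slope was -0.27 (adjusted p = 3.27e-05). CDH18 and CDH22, a pair of type II cadherins, had slopes of -0.25 ± 0.09 (adjusted p = 0.0226) and -0.24 ± 0.08 (adjusted p = 0.0138). CDH18 lost its call without the 3 libraries that stood apart (-0.21, adjusted p = 0.0527), or without prefix-2009 replicate 1 or prefix-2010 replicate 12 alone. PCDH9 had a slope of -0.16 ± 0.03 (adjusted p = 0.000105), which was -0.10 without the 1074 CPM of prefix-2009 replicate 1.

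**Figure D4:**
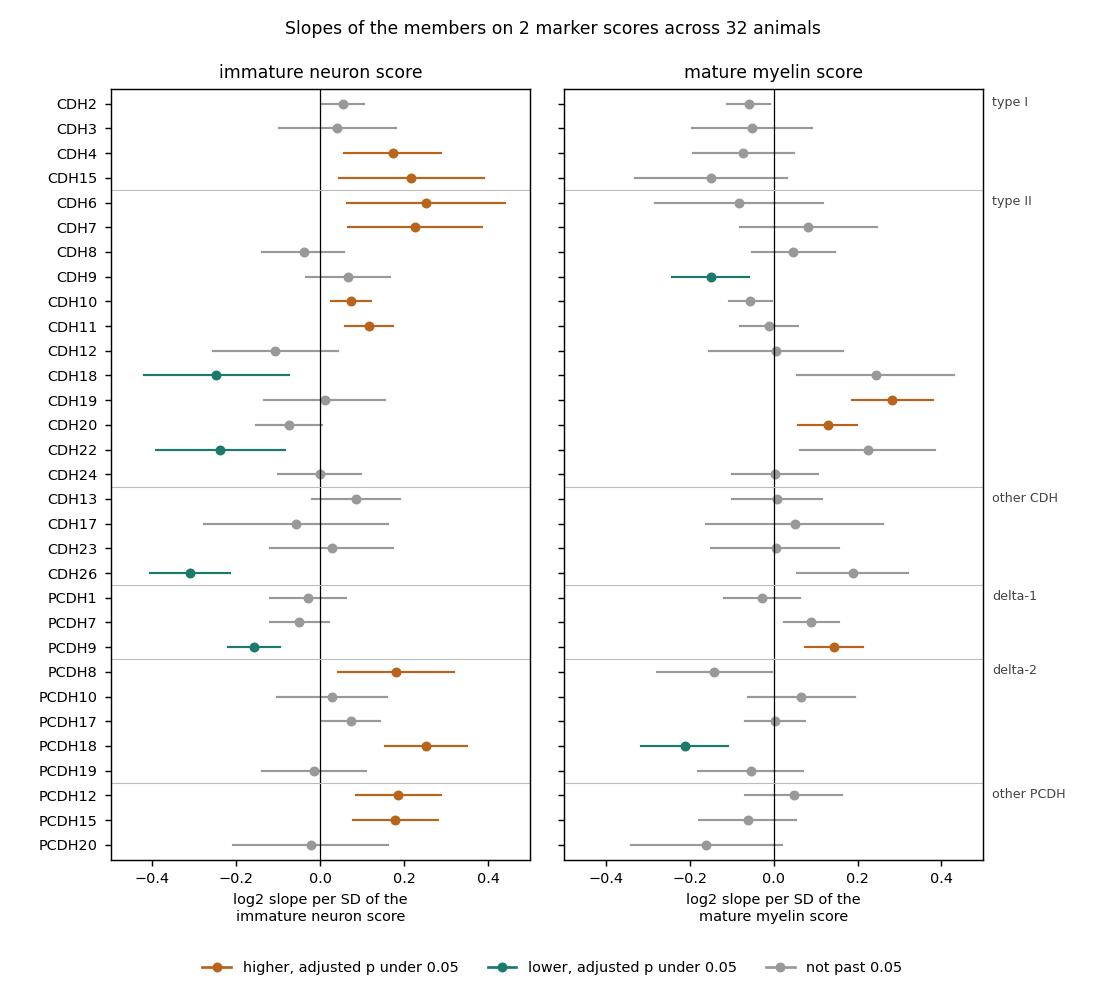
Log2 slope with its 95% interval of each of the 31 members on the immature neuron score (left) and the mature myelin score (right), over all 32 animals. PCDH18 is higher along the first and lower along the second, and PCDH9 the reverse.

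Slopes on the score and differences between prefixes come from the same animals and are not independent of each other. With the prefix as a factor, PCDH18, PCDH12, CDH11 and CDH10 were higher along the score and CDH26, CDH22 and PCDH9 lower, while the slope of CDH6 was -0.013. Within prefix-2010 alone, CDH22 and PCDH9 passed and were lower, and no member was higher. Within prefix-2009 alone, PCDH12 was higher and CDH26 lower. Over all genes, 1312 of 19947 were higher and 1467 lower with the prefix as a factor. Within prefix-2010 alone 473 of 19256 genes were higher and 690 lower, and within prefix-2009 alone 185 of 19645 and 316. The slopes in prefix-2010 and prefix-2009 were compared by an interaction term. No member passed, and only 2 of 20025 genes did, or 0.00999%. At an unadjusted p under 0.05 edgeR gave 1908 genes, and by limma-trend 0 genes passed after adjustment. In simulated data the same test found 15% of slope differences of 0.5 and 1% of those of 0.25, so that differences of this size were mostly not detectable there. The simulated spread was estimated without prefix or score in the model, unlike in the fit itself. It thus held variation that the fit removes, and these shares may be too low.

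Along the mature myelin score, 3 of 31 members were higher and 2 lower, where 3.01% of the 19941 genes tested were higher and 2.2% lower. CDH19 had the largest slope, 0.28 ± 0.05 (SE; adjusted p = 0.000145, edgeR), and ran from 5.72 CPM in prefix-2010 replicate 1, the animal of lowest myelin score, to 22.6 CPM in prefix-2009 replicate 12, that of the highest. It stayed past the threshold when any single library was left out. PCDH9 had a slope of 0.14 ± 0.03 (adjusted p = 0.0103) and CDH20 of 0.13 ± 0.03 (adjusted p = 0.0223). CDH20 lost its call without prefix-2009 replicate 5 (0.11, adjusted p = 0.0551).

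The members lower along the myelin score were PCDH18, with -0.21 ± 0.05 (adjusted p = 0.0110, edgeR), and CDH9, with -0.15 ± 0.05 (adjusted p = 0.0447). PCDH18 reached its highest value of 41.7 CPM in prefix-2010 replicate 1, without which the call was lost (-0.18, adjusted p = 0.0648). The CDH9 call ended on leaving out any of 19 single libraries. CDH18 and CDH22, with slopes of 0.24 and 0.22, did not pass (adjusted p = 0.122 and 0.0928).

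Members were also compared with each other across the 32 animals, as correlations of log2 CPM over 465 pairs, with a permutation test of 100000 resamples and adjustment over all pairs. Of these, 76 were positive and 50 negative at an adjusted p under 0.05. The share of such pairs among all genes was not computed, so these counts do not set the members apart from other genes. The median r was 0.0455. Such correlations share the library of both genes, and the 1e-05 printed for a p is the smallest the resamples can give.

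CDH13 and PCDH10 followed each other most closely, with Pearson's r = 0.899 and Spearman's rho = 0.909 (permutation p = 1e-05 for both, adjusted p = 0.000358 and 0.000517). The r was 0.869 within prefix-2010, 0.862 within prefix-2009 and 0.876 without the 2 animals farthest from the median of CDH13. Both genes were highest in prefix-2010 replicate 2, and without the 3 libraries that stood apart r was 0.902. CDH6 and PCDH15 had r = 0.842 and rho = 0.876 (permutation p = 1e-05 for both, adjusted p = 0.000358 and 0.000517), with 0.705 in prefix-2010, 0.902 in prefix-2009 and 0.894 without the 2 farthest animals.

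CDH18 and CDH22, both lower along the immature neuron score, had r = 0.834 and rho = 0.837 (permutation p = 1e-05 for both, adjusted p = 0.000358 and 0.000517). Within prefix-2010 r was 0.838, within prefix-2009 0.874, and without the 2 farthest animals 0.795. CDH6 and PCDH10 had r = 0.819 and rho = 0.750 at the same p values, with 0.844 in prefix-2010, 0.791 in prefix-2009 and 0.703 without the 2 farthest animals.

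PCDH10 and PCDH20 ran opposite, with r = -0.818 and rho = -0.760 (permutation p = 1e-05 and 2e-05, adjusted p = 0.000358 and 0.000715). The animal with the highest PCDH10, prefix-2010 replicate 2, had the lowest PCDH20, 46.3 CPM. The r was -0.850 in prefix-2010, -0.857 in prefix-2009, -0.725 without the 2 farthest animals and -0.700 without the 3 that stood apart. PCDH8 and PCDH9 had r = -0.806 and rho = -0.471 (permutation p = 0.00053 and 0.00711, adjusted p = 0.00440 and 0.0376). The size of this r depended on which animals entered. It was -0.255 without the 2 farthest animals and -0.275 within prefix-2010. Within prefix-2009, which holds the outlying prefix-2009 replicate 1, it was -0.961.

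**Figure D5:**
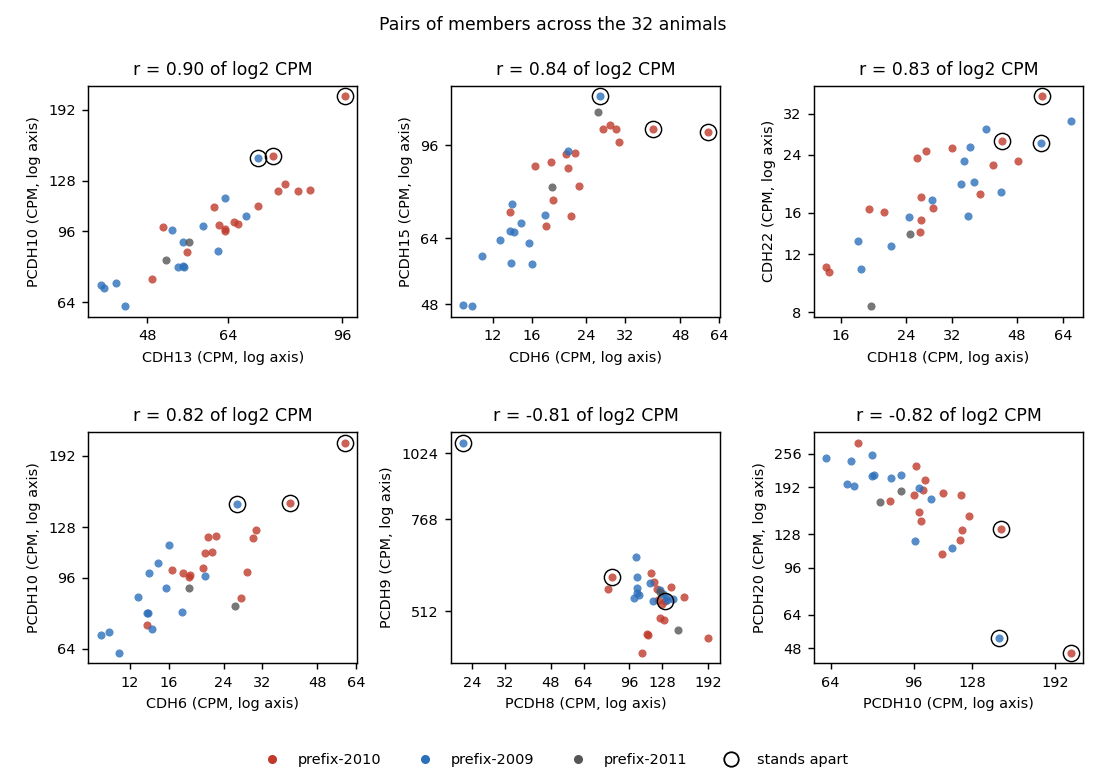
CPM of 6 pairs of members (log axes), 1 point per animal, coloured by prefix, with the 3 libraries that stood apart ringed. In the PCDH8 and PCDH9 panel 1 ringed animal lies far from all others, while CDH13 and PCDH10 rise together along the whole range.

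Of the 18 cytoplasmic partners and related genes with a row in the table, 1 was higher and 3 lower in prefix-2010. Of all genes tested, 7.12% were higher and 5.35% lower. ARVCF, a catenin of the p120 family, had a log2 difference of 0.24 (adjusted p = 0.00636, edgeR). CTNNA3, the alpha-T-catenin, had medians of 13.9 CPM in prefix-2010 and 23.1 CPM in prefix-2009 and a difference of -0.61 ± 0.14 (adjusted p = 0.00438). CYFIP2, of the WAVE complex, had a difference of -0.27. Along the immature neuron score 17.1% of all genes were higher and 17.4% lower. Of the 18, 4 were higher, CTNNB1, the beta-catenin, with 0.15, ARVCF with 0.11, CTNNA2 with 0.10 and VCL with 0.07. Another 4 were lower, among them CYFIP2, PKP4 and CTNNA3, the last by most, at -0.49 ± 0.05 (adjusted p = 3.67e-10). Along the myelin score 3 were higher, among them CTNNA3 at 0.39 and PKP4 at 0.10, where 3.01% of all genes were higher.

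Between prefixes, 7.12% of all genes tested were higher in prefix-2010 and 5.35% lower. Of the 17 other cadherin superfamily genes with a row, only DCHS1, whose product binds FAT4 between cells, was past the threshold. It had medians of 181 CPM in prefix-2010 and 131 CPM in prefix-2009, and its log2 difference was 0.47 ± 0.07 (SE; adjusted p = 0.000229, edgeR). It was also the only one of the 17 that was higher along the immature neuron score, with a slope of 0.24. CDHR2 and CDHR3 were lower, at -0.24 and -0.27, where 17.1% of all genes were higher and 17.4% lower. FAT4 was lower along the myelin score, where 2.2% of all genes were, with a slope of -0.25 ± 0.06 (adjusted p = 0.00419, edgeR).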

How the data were processed

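Hippocampal total RNA of 32 libraries was depleted of ribosomal RNA and made into stranded libraries, per the labels' protocols. The deposited table holds raw counts of reads per gene for each library. STAR and HTSeq were used, per the submitters' processing notes; the genome build, annotation and strand setting were not given in the sources used here, so counts of overlapping genes are uncertain. The 5 rows that name no gene took 66.1% ± 2.76 (SD, n = 32) of reads and were left out of library sizes and tests.

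Libraries were grouped by title prefix. Replicate numbers follow the order of accession and only name a library. Nothing in the labels says whether each library comes from a separate animal beyond its own title, so p-values measure the spread between these libraries.

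The counts were scaled by TMM and tested with edgeR 4.0.16 (R 4.3.3; filterByExpr with a minimum count of 10, a minimum total of 15 and a minimum proportion of 0.7), and log2 CPM used a prior count of 2. For the prefix fit the filter used the prefix groups, the smallest of 2 libraries, and so let in genes counted in few libraries. A score is the mean z-scored log2 CPM of a marker list, and its genes were left out of the fit on it. Alternatives used DESeq2 1.42.0, limma 3.58.1, other scalings and filters, covariates, subsets of libraries and leaving out each library. In simulated counts the prefix fit, on 23617 genes, found 64.6% of log2 changes of 0.5 and 90.8% of 1.

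Members, gene lists and tests were chosen with earlier results of these data known. The text names every member called, and the pairs, spreads and partners by a fixed rule. A gene of the partner list is counted but not reported singly here. Of the 33 members, 32 have their symbol in the RefSeq gene table of mChlSab1.0.hap1, which gave no sequences or coordinates here.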

Additional observations from a re-analysis of the deposited data

How the results depend on the processing

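Between prefixes, the members higher and lower numbered 7 and 1. They numbered 3 and 0 among animals with title numbers below 20000, 4 and 0 with the number set as a covariate and 0 and 0 once the immature neuron score was a covariate. Over all genes these settings gave, in that order, 687 and 475, 855 and 474, and 1 and 0, in place of 1707 and 1283. When each library was left out in turn the members ranged from 5 to 8 and from 0 to 2. Library totals in place of TMM left the members at 7 and 1, while over all genes 2310 were higher and 985 lower in place of 1707 and 1283. Along the immature neuron score that scaling gave 12 and 4 members, and 4196 and 2755 genes in place of 3405 and 3467. There, the 10 members higher became 4 with the prefix as a factor, 0 within prefix-2010 and 1 within prefix-2009, and 6 to 11 on leaving out each library. Over all genes, the 3405 higher became 1312 with the prefix as a factor, 473 within prefix-2010 and 185 within prefix-2009. The 4 members lower became 2 within prefix-2010, 1 within prefix-2009 and 2 with the myelin score as a covariate, and 3 to 4 on leaving out each library. Over all genes, the 3467 lower became 690 within prefix-2010, 316 within prefix-2009 and 2994 with the myelin score as a covariate. Along the myelin score, the 3 members higher became 5 with DESeq2, 5 with an unscaled score, 0 within prefix-2009 and 2 to 5 on leaving out each library. Over all genes, the 600 higher became 810 with DESeq2, 950 with an unscaled score and 70 within prefix-2009. The 2 members lower became 1 with no count filter, 1 with the prefix as a factor, 1 without the 3 libraries that stood apart, 0 without the 2 farthest libraries, 0 within either prefix, 0 once the immature neuron score entered as a covariate and 0 to 2 on leaving out each library. Over all genes, the 438 lower became 317 with no count filter, 137 with the prefix as a factor and 442 without the 3 libraries. They became 77 without the 2 farthest libraries, 130 within prefix-2010, 21 within prefix-2009 and 29 with the score as a covariate. Called pairs numbered 126, and 37 within prefix-2010, 39 within prefix-2009, where fewer animals enter, and 105 without the 3 libraries that stood apart, an alternative chosen after seeing the data. Reversed signs were -0.012 for PCDH18 between prefixes with the score as a covariate, -0.013 for the CDH6 slope with the prefix as a factor and -0.028 within prefix-2009, -0.074 for the CDH7 slope within prefix-2010 and -0.105 for the PCDH15 slope within prefix-2009, and the cause was not tested. Of the other single-gene values under settings other than leaving out a library, 282 kept their side of the threshold and 78 lost it with the same sign. No paired analysis was possible because replicate numbers follow the order of accession and pair no animals. Depth limits CDH1, CDH15, CDH17 and CDH3 to few counts per library, and CDH16 to below 3 counts.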
